A study of Mus musculus with 8 samples.

Results

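Heme and iron recycling was followed through 10 genes, which were chosen by name: Cd163, Slc48a1, Hmox1, Blvra, Blvrb, Slc11a1, Slc40a1, Fth1, Ftl1 and Trf. All 10 had a row in the deposited table, which holds 13786 genes that it classes as protein-coding. RNA came from splenocytes positive for CD11c, the integrin chain encoded by Itgax, of female mice aged 7 weeks. The groups were 4 C57BL/6 mice and 4 mice of B6.SLE123, a lupus-prone strain that carries the Sle1, Sle2 and Sle3 susceptibility intervals of another strain on the C57BL/6 background. The labels list no treatment, and the study chose this age as one before overt disease. The genotype field of the labels rises by 1 from mouse to mouse, so the strain was taken from the sample titles and the methods. The Sle1, Sle2 and Sle3 intervals lie on chromosomes 1, 4 and 7, and their borders are not given in the sources used here. Whether Slc40a1 and Slc11a1 on chromosome 1 or Blvrb and Ftl1 on chromosome 7 lie inside them was not tested. The same holds for genes named later, among them Abcb6, Flvcr1 and Steap3 on chromosome 1 and Alad and Aco1 on chromosome 4.

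Macrophages of the splenic red pulp engulf aged red blood cells, degrade their hemoglobin and return the iron to the blood. Cd163 takes up hemoglobin bound to haptoglobin, and Slc48a1 moves heme out of the phagolysosome. Hmox1 opens the heme ring and frees the iron, Blvra converts the green product, biliverdin, to bilirubin, and Blvrb is a second biliverdin reductase. Slc11a1 pumps divalent metal out of the phagosome, Slc40a1 (ferroportin) exports iron from the cell, the ferritin chains Fth1 and Ftl1 store it, and Trf (transferrin) carries it in plasma.

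Ferritin and ferroportin RNAs are also controlled after transcription, by iron regulatory proteins that bind a short hairpin, the iron-responsive element. A hairpin before the coding sequence blocks translation when iron is scarce, whereas hairpins after the coding sequence of Tfrc, the transferrin receptor, protect its RNA. The counts below measure RNA and not protein. The hairpin pattern was searched in the principal transcripts of the 10 genes and of Alas2, Tfrc, Hmox2, Slc11a2, Aco1 and Ireb2. It is a C, any 5 bases, CAGTG, then A, C or T, and any 5 bases, where the 5 bases on either side of the loop pair with each other and G to T pairs are allowed. The matches are printed from the mm10 genome on the strand of the gene, with the loop in capitals. They are shown because ferritin, ferroportin and transferrin receptor RNAs are the textbook carriers of this hairpin, and each lies within a single exon. Only 1 transcript per gene was searched, so a gene without a match may have the hairpin in another.
Slc40a1, 5′ untranslated region, exon 1, chr1:45925466-45925492, minus strand: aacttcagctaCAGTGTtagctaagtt
Fth1, 5′ untranslated region, exon 1, chr19:9982733-9982759, plus strand: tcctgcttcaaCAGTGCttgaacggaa
Ftl1, 5′ untranslated region, exon 1, chr7:45459780-45459806, minus strand: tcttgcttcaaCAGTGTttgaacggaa
Alas2, 5′ untranslated region, exon 1, chrX:150547459-150547485, plus strand: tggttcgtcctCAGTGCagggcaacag
Tfrc, 3′ untranslated region, exon 19, chr16:32631220-32631246, plus strand: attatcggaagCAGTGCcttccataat
Tfrc, 3′ untranslated region, exon 19, chr16:32631599-32631625, plus strand: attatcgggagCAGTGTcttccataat
Tfrc, 3′ untranslated region, exon 19, chr16:32631664-32631690, plus strand: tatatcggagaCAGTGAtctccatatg
Tfrc, 3′ untranslated region, exon 19, chr16:32631711-32631737, plus strand: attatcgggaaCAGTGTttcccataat
The same pattern was found in 0.0909% of 19797 annotated 5′ untranslated regions and in 0.36% of 21683 3′ untranslated regions. A match is a description of the letters and not a measurement of binding.

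The total count of a C57BL/6 mouse was 25761789 to 32931045, and that of a B6.SLE123 mouse 25563070 to 37367094. The quasi-likelihood F test of edgeR called 7356 genes of the table (53.4%) at an adjusted p below 0.05, and the median log2 fold change was -0.002. The label of the cells was dendritic. Levels are given as CPM, the count scaled to a common library size (counts-per-million). Itgax was at 1329 ± 77.9 CPM (SD, n = 4) in C57BL/6 and 1543 ± 93.4 CPM in B6.SLE123 mice, and all 12 dendritic cell markers looked for were in the table. Markers of red pulp macrophages, monocytes, B cells, T cells, neutrophils and erythroid cells were also detected, so the preparations held RNA of several cell types. The counts of bulk RNA cannot tell fewer cells of a type from less RNA per cell. The labels number the mice and do not describe how the animals were housed or processed. A difference in housing or processing between the strains therefore cannot be told apart from strain. The edgeR p-values set the strain difference against the spread among the mice of a strain in these 8 samples.

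The 10 recycling genes were all lower in B6.SLE123 mice. Each had an adjusted p below 0.05 in that direction, against 26.6% of all genes in the table, and 9 of the 10 were more than 2-fold lower, against 8.29%. For each of them, every B6.SLE123 mouse lay below every C57BL/6 mouse, which held for 24.5% of all genes (exact two-sided permutation test, p = 0.0286 for each gene, the smallest p that 4 mice against 4 allow). Their median log2 fold change was -1.90, beside -0.002 for all genes. Together they made up 0.916% to 1.11% of all counts in C57BL/6 mice and 0.226% to 0.331% in B6.SLE123 mice. The falls ranged from 1.59-fold for Fth1 to 6.42-fold for Slc40a1.

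**Figure D1:**
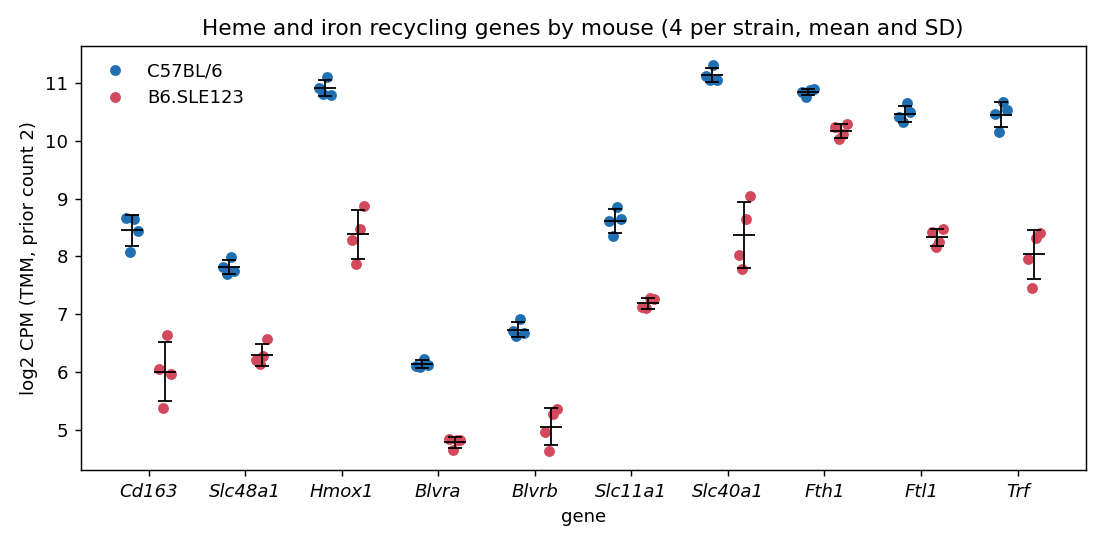
Log2 CPM (TMM scaling, prior count 2) of the 10 genes, 1 point per mouse, with the mean and SD of 4 mice per strain as bars. The strains do not overlap for any gene, and the gap is smallest for Fth1 and largest for Slc40a1.

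The first step, uptake of hemoglobin and transport of heme, is represented by Cd163 and Slc48a1. Cd163 (ENSMUSG00000008845.9, mm10 chr6:124304656-124330527, plus strand) was at 405, 271, 398 and 347 CPM in C57BL/6 replicates 1 to 4 and at 66.2, 41.4, 99.1 and 62.4 CPM in B6.SLE123 replicates 1 to 4. The highest B6.SLE123 mouse therefore stayed well below the lowest C57BL/6 mouse, and the highest and lowest B6.SLE123 mice differed 2.39-fold. This is a 5.28-fold fall (log2 fold change -2.40, SE 0.22, adjusted p = 7.71e-06). SE is the standard error of the log2 fold change, and adjusted p-values of single genes come from the same edgeR test throughout. Slc48a1 (ENSMUSG00000081534.3, chr15:97778520-97792692, plus strand) was at 227, 208, 254 and 215 CPM in the C57BL/6 mice and at 73.8, 70.2, 77.6 and 94.7 CPM in the B6.SLE123 mice. The heme transporter thus fell less than the hemoglobin receptor, by 1.52 on the log2 scale (SE 0.09, adjusted p = 5.76e-07), and its B6.SLE123 mice lay closer together. The difference between these 2 falls was not tested. Hdac7 overlaps Slc48a1 on the other strand, and whether counting used the strand is not given in the sources used here, so reads of Slc48a1 are uncertain.

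RNA of genes for both steps of heme breakdown was lower. Hmox1 (ENSMUSG00000005413.8, chr8:75093621-75100589, plus strand), the heme oxygenase that is induced by heme and oxidants, was at 1925, 1809, 2212 and 1783 CPM in C57BL/6 mice and at 313, 234, 358 and 471 CPM in B6.SLE123 mice. All 4 B6.SLE123 mice were far below the C57BL/6 range, and B6.SLE123 replicates 2 and 4 marked the ends of their own. The log2 fold change was -2.49 (SE 0.18, adjusted p = 1.23e-06), a 5.62-fold fall, and only 262 of the 13786 genes had a lower one. Hmox2, the constitutive heme oxygenase, was at 66.7 ± 2.81 CPM in C57BL/6 and 58.1 ± 3.57 CPM in B6.SLE123 mice (SD, n = 4), a log2 fold change of -0.20 (SE 0.05, adjusted p = 0.00859). Its reads may include those of Gm15859 and Cdip1, which it overlaps. The count ratio of Hmox1 to Hmox2 within a mouse was 28.9 in C57BL/6 and 5.73 in B6.SLE123 mice (geometric means). On the log2 scale that ratio was 4.85 ± 0.15 against 2.52 ± 0.40 (SD, n = 4), and the strains did not overlap (exact permutation test, p = 0.0286, adjusted over 7 pairs 0.0286).

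Both biliverdin reductases fell, and by less than Hmox1. Blvra (ENSMUSG00000001999.15, chr2:127070665-127097084, plus strand) was at 68.6, 67.6, 75.2 and 69.1 CPM in C57BL/6 mice and at 28.5, 24.9, 28.2 and 28.1 CPM in B6.SLE123 mice. Values were tight within each strain, with 1.11-fold between the highest and lowest C57BL/6 mouse and 1.15-fold in B6.SLE123, and the fall was 2.56-fold (log2 fold change -1.36, SE 0.06, adjusted p = 7.46e-08). Blvrb (ENSMUSG00000040466.16, chr7:27447978-27466144, plus strand) was at 104, 98.5, 121 and 102 CPM in C57BL/6 mice and at 31.1, 24.8, 38.4 and 40.6 CPM in B6.SLE123 mice. It was 3.17-fold lower (log2 fold change -1.67, SE 0.13, adjusted p = 2.62e-06), and its B6.SLE123 mice differed among themselves by 1.64-fold. The log2 ratio of Hmox1 to Blvrb was between 4.12 and 4.21 in C57BL/6 mice and between 3.22 and 3.53 in B6.SLE123 mice, a difference of -0.85 (exact permutation test, p = 0.0286, adjusted 0.0286). Thus Hmox1 lost more RNA than Blvrb. The ratio of Hmox1 to Blvra was not tested. The log2 ratio of Blvra to Blvrb was -0.60 ± 0.06 against -0.27 ± 0.26 (SD, n = 4), a difference of 0.33 with the same exact permutation p of 0.0286. Leaving out each C57BL/6 mouse in turn ended this call, with exact permutation p adjusted over the pairs between 0.1 and 0.143, while the difference stayed between 0.30 and 0.35.

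The RNAs of the transporters that move iron out of the phagosome and out of the cell were both lower. Transport itself was not measured, and whether the gene copies of these strains encode working transporters was not tested. Slc40a1 (ENSMUSG00000025993.10, chr1:45908068-45926523, minus strand), the known iron exporter of mammalian cells, was at 2246, 2123, 2543 and 2126 CPM in C57BL/6 mice. In B6.SLE123 mice it was at 262, 220, 400 and 526 CPM, so that replicates 3 and 4 lay above replicates 1 and 2 and all lay below the C57BL/6 mice. The log2 fold change was -2.68 (SE 0.23, adjusted p = 4.56e-06), and the B6.SLE123 mean was 6.42-fold lower. Slc11a1 (ENSMUSG00000026177.11, chr1:74375195-74386062, plus strand), which is also known as a resistance gene against intracellular microbes, was at 393, 325, 464 and 400 CPM in C57BL/6 mice. In B6.SLE123 mice it was at 139, 137, 156 and 153 CPM, within 1.14-fold of each other. The log2 fold change was -1.44 (SE 0.09, adjusted p = 7.70e-07), a 2.71-fold fall. The difference between the falls of Slc40a1 and Slc11a1 was not tested. Slc11a2, a relative of Slc11a1 that works in the endosomes of the transferrin cycle, was at 31.1 ± 1.65 CPM in C57BL/6 and 28.7 ± 1.27 CPM in B6.SLE123 mice (SD, n = 4), with a log2 fold change of -0.12 (SE 0.06, adjusted p = 0.0923). Slc11a2 overlaps Gm5475 on the other strand. The log2 ratio of Slc11a1 to Slc11a2 was 3.65 ± 0.18 in C57BL/6 and 2.35 ± 0.12 in B6.SLE123 mice, which do not overlap (exact permutation test, p = 0.0286, adjusted 0.0286). The ratio of Slc40a1 to Hmox1 moved least of the 7. Its log2 value was between 0.20 and 0.25 in C57BL/6 mice and between -0.26 and 0.16 in B6.SLE123 mice, a difference of -0.23 with no overlap (exact permutation test, p = 0.0286, adjusted 0.0286). Leaving out each C57BL/6 mouse in turn raised the adjusted exact p to between 0.114 and 0.171, while the difference stayed at -0.23 or -0.24.

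The ferritin chains moved by unequal amounts. Fth1 (ENSMUSG00000024661.7, chr19:9980598-9985098, plus strand), the heavy chain that oxidizes iron for storage, was at 1847, 1734, 1887 and 1902 CPM in C57BL/6 mice and at 1207, 1053, 1111 and 1261 CPM in B6.SLE123 mice. It had the smallest fall of the 10, at 1.59-fold (log2 fold change -0.67, SE 0.06, adjusted p = 6.39e-06), and the mice of a strain lay within 1.1-fold and 1.2-fold of each other. Ftl1 (ENSMUSG00000050708.16, chr7:45457944-45459884, minus strand), the light chain that helps iron to crystallize in the ferritin core, was at 1359, 1277, 1606 and 1445 CPM in C57BL/6 mice. In B6.SLE123 mice it was at 344, 286, 303 and 354 CPM, a 4.42-fold fall (log2 fold change -2.14, SE 0.09, adjusted p = 6.35e-08). The count ratio of Fth1 to Ftl1 was therefore 1.3 in C57BL/6 and 3.6 in B6.SLE123 mice, and its log2 value went from 0.38 ± 0.10 to 1.85 ± 0.03 (SD, n = 4; exact permutation test, p = 0.0286, adjusted 0.0286). The B6.SLE123 mice lay between 1.81 and 1.88, the tightest of the 7 ratios in that strain. Both RNAs carry the hairpin printed above, and their falls in RNA were unequal.

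The light chain count has a limit that the heavy chain count does not share to the same extent. Of the 50-base words in the principal transcript of Ftl1, 90.6% also occur in transcripts of other annotated genes, among them Ftl1-ps1, which is named as a pseudogene although the table classes it as protein-coding, against 6.59% for Fth1 and 0% for Hmox1, Slc40a1, Blvra, Blvrb and Slc48a1. Reads from such stretches can be assigned to a copy or left out. Ftl1-ps1 was in the table, at 199, 206, 310 and 286 counts in C57BL/6 mice and at 16, 22, 20 and 9 counts in B6.SLE123 mice. These counts were between 0.554% and 0.655% of the Ftl1 count in C57BL/6 mice and between 0.1% and 0.207% in B6.SLE123 mice. Ftl1-ps1 thus had a smaller share in every B6.SLE123 mouse, and its part in the fall of Ftl1 was not tested. Ftl1 also overlaps Gm22133 on its own strand and Gm10252 on the other, so its counts are uncertain.

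Export was set against storage with each ferritin chain in turn, and the result depended on the chain. The log2 ratio of Slc40a1 to Fth1 was 0.28, 0.29, 0.43 and 0.16 in C57BL/6 mice and -2.20, -2.26, -1.47 and -1.26 in B6.SLE123 mice. The ratio, which is not corrected for gene length, was thus above 0 in every C57BL/6 mouse and below 0 in every B6.SLE123 mouse. The mean difference was -2.09, or 4.26-fold (exact permutation test, p = 0.0286, adjusted 0.0286). With Ftl1, a pair added after the values were seen, the log2 ratio was 0.73, 0.73, 0.66 and 0.56 in C57BL/6 mice and -0.39, -0.38, 0.40 and 0.57 in B6.SLE123 mice. Here the strains overlapped, and the difference of -0.62 did not pass the test (exact permutation test, p = 0.0571), except without B6.SLE123 replicate 4 (-0.79, exact p = 0.0286).

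**Figure D2:**
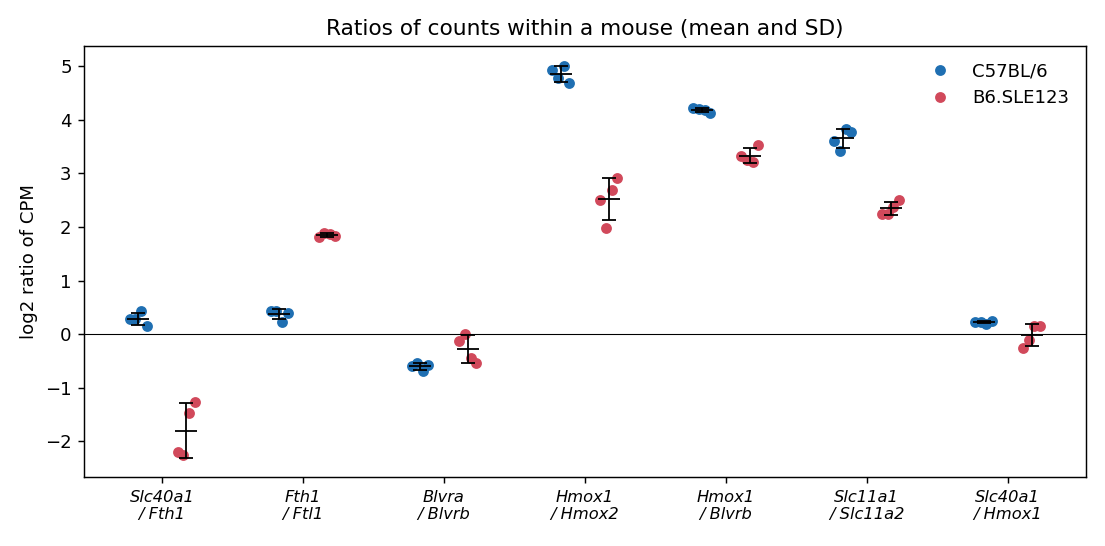
Log2 ratio of the CPM of 2 genes within a mouse for the 7 pairs compared, 1 point per mouse, with the mean and SD of 4 mice per strain as bars. The strains are farthest apart for Hmox1 over Hmox2 and Slc40a1 over Fth1, and Fth1 over Ftl1 is higher in every B6.SLE123 mouse.

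Trf (ENSMUSG00000032554.15, chr9:103204001-103230444, minus strand), the plasma carrier of ferric iron that is made mainly by the liver, was abundant in these preparations. It was at 1408, 1148, 1630 and 1482 CPM in C57BL/6 mice and at 249, 176, 320 and 338 CPM in B6.SLE123 mice. B6.SLE123 replicate 2 was the lowest, as it was for Hmox1, Slc40a1, Blvra, Blvrb, Fth1, Ftl1, Cd163, Slc48a1 and Slc11a1. The log2 fold change of Trf was -2.39 (SE 0.19, adjusted p = 2.20e-06), a 5.23-fold fall. Gm20425, an annotated gene on the same strand, overlaps Trf and shares 79.8% of its 50-base words, so the Trf counts are uncertain.

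Levels of different genes were compared per length, as CPM divided by the kilobases of annotated exon (RPKM). In C57BL/6 mice Hmox1 at 1104 ± 112 RPKM and Ftl1 at 1061 ± 105 RPKM (SD, n = 4) overlapped at the top. Fth1 at 531 RPKM, Trf at 427 RPKM and Slc40a1 at 251 RPKM followed, each above the next in every mouse. Slc11a1 at 107 RPKM and Slc48a1 at 82.1 RPKM overlapped, and Cd163 at 65.1, Blvrb at 38.3 and Blvra at 28.7 RPKM came last without overlap. In B6.SLE123 mice the order changed. Fth1 led at 334 ± 26.9 RPKM, above Ftl1 at 240 ± 24.2 RPKM, which overlapped Hmox1 at 196 ± 56.3 RPKM (SD, n = 4). Trf was at 81.6 RPKM. Slc11a1 at 39.4, Slc40a1 at 39.1 and Slc48a1 at 28.7 RPKM formed an overlapping group, as did Cd163 at 12.3, Blvrb at 12.1 and Blvra at 11.2 RPKM. The order depends on the length assumed, since with the length of the principal transcript alone Fth1 led in both strains, at 1983 and 1247 RPKM, and Slc40a1 at 671 RPKM lay above Trf at 551 RPKM in C57BL/6 mice.

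Red pulp macrophage markers and erythroid markers were lower together with the recycling genes. Of 12 such markers, none of them a recycling gene, 12 were lower at an adjusted p below 0.05, with a median log2 fold change of -2.45. Their summed level was between 8818 and 11268 CPM in C57BL/6 mice and between 1530 and 2713 CPM in B6.SLE123 mice, and no marker was at 0. Spic, the transcription factor that red pulp macrophages require, had a log2 fold change of -2.73, and Vcam1, an adhesion molecule of these cells, of -2.45. The dendritic cell markers did not share this direction, with 9 of 12 higher, 2 lower and a median of 0.29. Erythroid markers were lower in 8 of the 9 in the table, with a median of -2.72 and a summed level of 153 ± 80.6 CPM in C57BL/6 and 23.9 ± 13.1 CPM in B6.SLE123 mice (SD, n = 4). Of the neutrophil markers, 3 of 5 were lower, with a summed level of 135 ± 6.74 CPM against 44.8 ± 7.22 CPM. These were Csf3r (76.5 against 25.2 CPM), Mmp9 (47 against 10.6 CPM) and Cxcr2 (4.39 against 2.83 CPM). S100a8 (2.97 against 2.51 CPM, adjusted p = 0.467 from edgeR) and S100a9 (4.41 against 3.76 CPM, adjusted p = 0.544) did not pass the test. Of the monocyte markers, 2 of 6 were lower, with a median of -0.24. The part of these cell types in the fall of the recycling genes was not tested. The per-mouse comparison with the macrophage markers that follows gives the size of each fall beside theirs. In bulk RNA it cannot separate fewer cells of a type from less RNA per cell.

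Each recycling gene was set against the mean log2 CPM of the 12 macrophage markers in the same mouse. That mean was 9.15 ± 0.13 in C57BL/6 and 6.91 ± 0.39 in B6.SLE123 mice (SD, n = 4), a difference of -2.24 (exact permutation test, p = 0.0286). Hmox1 and Slc40a1 fell by more than this mean, although 5 of the 12 markers had a lower log2 fold change than Hmox1 and 3 a lower one than Slc40a1. Hmox1 lay 1.76 ± 0.06 above the marker mean in C57BL/6 and 1.47 ± 0.09 above it in B6.SLE123 mice, a difference of -0.29. Slc40a1 lay 1.99 ± 0.04 and 1.46 ± 0.20 above it (SD, n = 4), a difference of -0.53. In 5 genes the fall was smaller than that of the marker mean, though only for Fth1 did all 12 markers have a lower log2 fold change. For Blvra, Slc11a1 and Slc48a1 10 of the 12 markers had a lower one, and for Blvrb 9 had. Relative to the mean, Fth1 differed by 1.56, Blvra by 0.88, Slc11a1 by 0.81, Slc48a1 by 0.72 and Blvrb by 0.56. Each of these 7 differences had an exact permutation p = 0.0286, or 0.0408 adjusted over the 10 genes, with no overlap between the strains. Fth1 relative to the markers was between 1.56 and 1.78 in C57BL/6 mice and between 2.98 and 3.60 in B6.SLE123 mice. In the other 3 genes the strains overlapped, with a difference of 0.09 for Ftl1 (exact permutation p adjusted over the genes 0.543), -0.21 for Cd163 (0.381) and -0.18 for Trf (0.107). These p-values lie close to the smallest possible, and without C57BL/6 replicate 3 all 7 adjusted p rose to 0.0571 or 0.0816. Slc40a1 lost its call without each C57BL/6 mouse (adjusted exact p between 0.0714 and 0.0816), Slc11a1 lost its own also without C57BL/6 replicate 2 (0.0714), and Trf gained one there (-0.24, adjusted exact p = 0.0476). Against the median of the centred markers in place of their mean, a reference added after the values were seen, the strains overlapped for Hmox1 (-0.04, adjusted exact p = 0.73) and Slc40a1 (-0.27, adjusted exact p = 0.0952). The other 5 genes stayed higher without overlap, by 0.81 to 1.82, at an adjusted exact p = 0.0571.

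**Figure D3:**
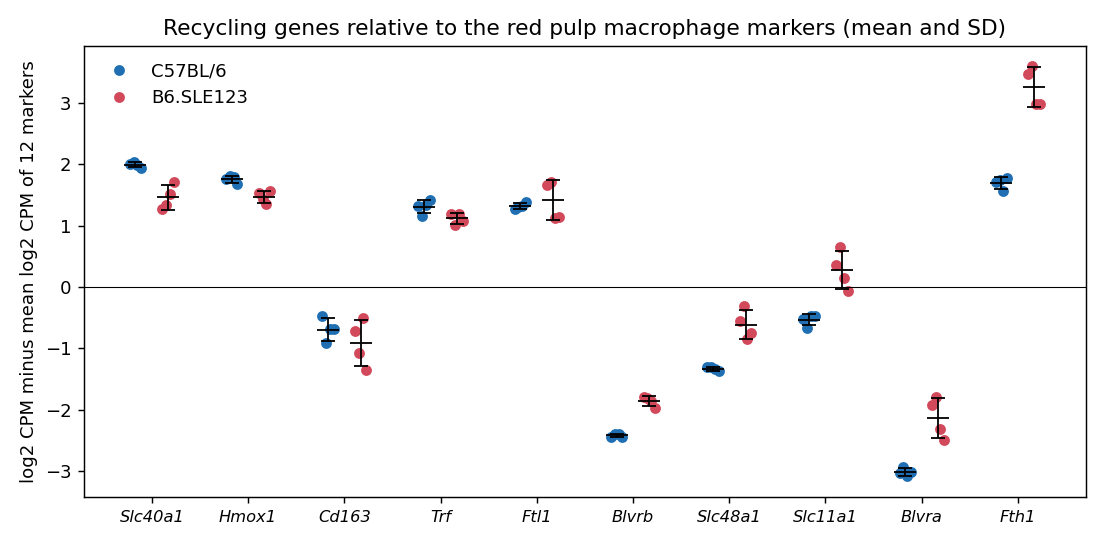
Log2 CPM of each recycling gene minus the mean log2 CPM of the 12 red pulp macrophage markers in the same mouse, 1 point per mouse, with the mean and SD of 4 mice per strain as bars. Relative to this mean, though not to the marker median, Slc40a1 and Hmox1 are lower in every B6.SLE123 mouse, Ftl1, Cd163 and Trf overlap between the strains, and Fth1 stands farthest above its C57BL/6 values.

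The wider heme and iron pathways did not show the same uniform fall. Of 67 further genes in 7 lists, 58 were in the table. Of these, 22 were lower against 26.6% of all genes, 9 were higher against 26.7%, and 27 did not pass the test, with a median log2 fold change of -0.14. A more than 2-fold change was found for 6 lower genes and for 2 higher ones of the 58, close to the 8.29% and 2.76% of all genes. The counts of the single lists below, and of the marker lists above, stand beside the same shares of all genes, 26.6% lower and 26.7% higher.

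Among genes of heme synthesis, 4 of 9 were lower and 1 was higher, with a median of -0.17. The higher one was Alad, which joins the first precursors into the pyrrole unit of heme. It was at 12.2 ± 1.72 CPM in C57BL/6 and 34.6 ± 3.03 CPM in B6.SLE123 mice (SD, n = 4), a rise of 2.83-fold (log2 fold change 1.5, SE 0.10, adjusted p = 8.48e-07). Alas2, the erythroid enzyme of the first step, whose hairpin is printed above, was at 5.57 ± 3.27 CPM against 1.02 ± 0.368 CPM (log2 fold change -2.48, SE 0.45, adjusted p = 8.54e-04). Erythroid markers moved with Alas2, with 8 of the 9 in the table lower and a summed level between 78.2 and 262 CPM in C57BL/6 mice and between 8.55 and 38.4 CPM in B6.SLE123 mice. Slc4a1 was at 0 in at least 1 B6.SLE123 mouse, and the part of these markers was not tested. Alas2 overlaps Apex2 and Mir3620 on the other strand. Alas1, the enzyme of the same step in other tissues, was at 44.8 ± 2.41 CPM in C57BL/6 and 46.4 ± 2.72 CPM in B6.SLE123 mice (SD, n = 4; adjusted p = 0.469 from edgeR's test).

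Among genes of heme uptake and transport, counted with Hmox2, 5 of 9 were lower and 0 higher, with a median of -0.65. Lrp1, the receptor for heme bound to hemopexin and for many other ligands, was at 1216 ± 150 CPM in C57BL/6 and 316 ± 77.8 CPM in B6.SLE123 mice (SD, n = 4; log2 fold change -1.94, SE 0.16, adjusted p = 3.45e-06). Slc46a1, which carries folate and heme, fell 3.77-fold from 4.56 ± 0.454 CPM to 1.23 ± 0.373 CPM (adjusted p = 1.41e-05). Abcb6, a porphyrin transporter, was near the lower limit of the table, at 0.452 ± 0.125 CPM and 0.173 ± 0.0773 CPM (log2 fold change -1.34, adjusted p = 0.0123). Gm16217 overlaps Lrp1 on the other strand, and Gm29253 overlaps Abcb6 on the same strand. Flvcr1, described as a heme exporter of the cell surface, was at 98.9 ± 5.37 CPM and 105 ± 8.21 CPM and did not pass the test (adjusted p = 0.296).

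Of 12 genes of iron uptake, 9 were in the table, 3 of them lower and 1 higher, with a median of -0.19. The higher one was Tfrc, at 114 ± 11.8 CPM in C57BL/6 and 242 ± 19.9 CPM in B6.SLE123 mice (SD, n = 4), which is 2.13-fold (log2 fold change 1.09, SE 0.08, adjusted p = 1.40e-06). The C57BL/6 mice lay between 103 and 130 CPM and the B6.SLE123 mice between 216 and 259 CPM. Tfrc thus moved opposite to its ligand gene Trf. All 8 proliferation markers were also higher, with a summed level between 442 and 498 CPM in C57BL/6 mice and between 843 and 1153 CPM in B6.SLE123 mice, and their part in the rise of Tfrc and Alad was not tested. Steap3, the endosomal reductase that readies iron from transferrin for transport, fell 4.13-fold from 5.07 ± 1.22 CPM to 1.24 ± 0.265 CPM (log2 fold change -2.05, adjusted p = 1.74e-05). Slc39a8, a transporter of zinc, manganese and iron, fell 3.09-fold from 12 ± 1.43 CPM to 3.91 ± 0.586 CPM (log2 fold change -1.63, adjusted p = 2.23e-06). It overlaps 4933401H06Rik, Gm43429 and Gm43428.

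The remaining lists held no gene with a more than 2-fold change. Among iron chaperones and ferritin turnover, 4 of 6 genes were in the table. Ncoa4, the receptor that delivers ferritin to the lysosome, was lower at 101 ± 7.51 CPM against 157 ± 13 CPM in C57BL/6 (SD, n = 4; log2 fold change -0.64, adjusted p = 2.07e-05), and the iron chaperones Pcbp1 and Pcbp2 were slightly higher, by 0.17 and 0.19. The fall of Ncoa4 had nearly the size of that of Fth1. Of 9 genes of iron sensing, 5 were in the table and 2 were lower. The iron regulatory proteins are encoded by Aco1, with a log2 fold change of -0.34 (adjusted p = 3.68e-04), and Ireb2, with 0.07 (adjusted p = 0.318). Among 10 genes of mitochondrial iron and iron-sulfur clusters, 2 were lower and 1 higher, and these counts moved by 1 with the tool used. The list of regulators that respond to heme and oxidants, with their targets, had 5 of 12 genes lower and 3 higher, with a median of 0.06. The heme-sensing repressor of Hmox1, Bach1, had a log2 fold change of 0.08 (adjusted p = 0.251), and its activator Nfe2l2 of -0.29 (adjusted p = 0.0186). Among other targets of Nfe2l2 in the list, Gclm (-0.87, adjusted p = 4.49e-06), Srxn1 (-0.66, adjusted p = 5.42e-04) and Txnrd1 (-0.40, adjusted p = 5.64e-04) were lower and Gclc was higher (0.52, adjusted p = 0.00141), while Nqo1 and Slc7a11 did not pass the test.

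**Figure D4:**
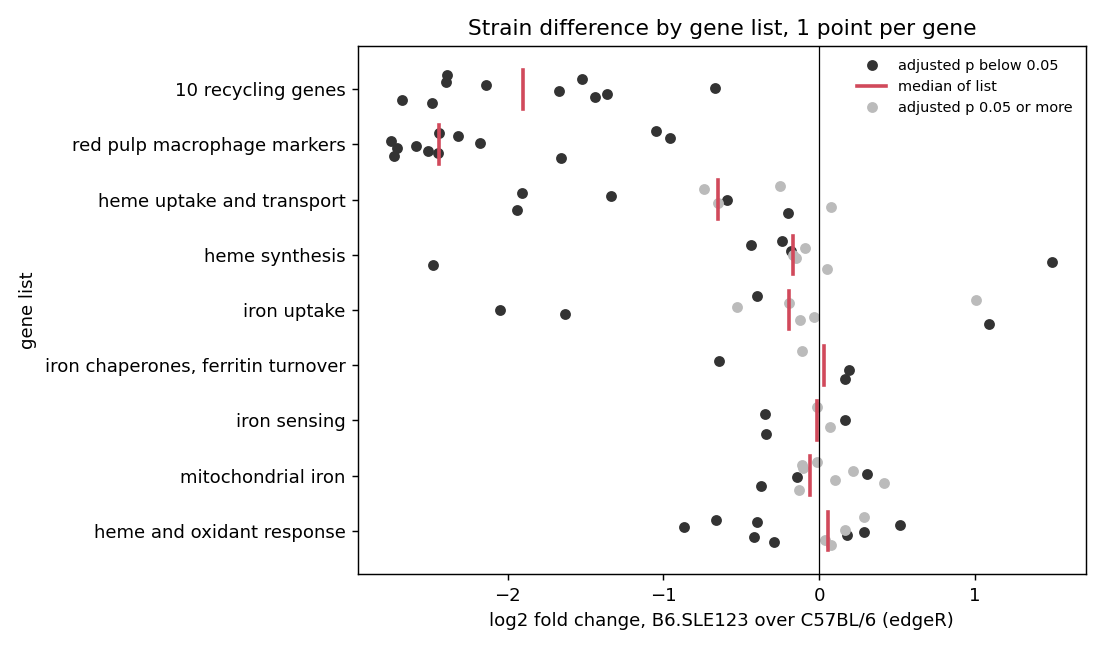
Log2 fold change of B6.SLE123 over C57BL/6 by edgeR for each gene of the recycling set, of the red pulp macrophage markers and of the 7 pathway lists, 1 point per gene. Dark points have an adjusted p below 0.05, grey points do not, and red bars mark the medians, which are -1.90 for the recycling genes, -2.45 for the markers and between -0.65 and 0.06 for the pathway lists.

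The genes whose values over the 8 mice lay nearest to those of Hmox1 and Slc40a1 were found among 10610 others with a mean of at least 100 counts, by the root mean square difference of log2 CPM after centring each gene. Nearest to Hmox1 were Clec4n (0.06), a C-type lectin, and Kcna2 (0.07), a potassium channel, followed by Stab2 and Crip2 (0.09 each). Clec4n was at 206 ± 27 CPM in C57BL/6 and 38.5 ± 10 CPM in B6.SLE123 mice (SD, n = 4). Nearest to Slc40a1 were Mertk (0.06), the receptor by which macrophages engulf dying cells, and Ccr3, Scamp5, Slc16a9 and Rims3 (0.09 each). Mertk is also one of the 12 macrophage markers, and it was at 456 ± 38.5 CPM in C57BL/6 and 68.3 ± 27.9 CPM in B6.SLE123 mice. Within the recycling set, the distance from Hmox1 was 0.14 for Trf, 0.17 for Slc40a1, 0.28 for Ftl1 and 0.30 for Cd163, and it was largest for Fth1 at 0.95. All 8 mice enter these distances, and the difference between the strains makes up most of each gene's variation.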

How the data were processed

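Reads had been trimmed (cutadapt), aligned to mm10 (STAR) and assigned to genes (featureCounts) by the authors, who deposited raw counts per mouse of 13786 genes, all classed as protein-coding in the table. Strand setting, annotation and versions are not given in the sources used here. The larger strain median was at least 5 counts for every gene. The table's columns of the authors' own DESeq2 comparison (mean level, fold change, error, p-values) were not used. The strains were compared in edgeR 4.0.16 under R 4.3.3, with TMM scaling, no filter, the quasi-likelihood F test and adjustment by Benjamini-Hochberg across all 13786 genes. On simulated data with 200 changed genes, 98% of changes of 2-fold or more were recovered and 9 of 200 calls were false. Log2 CPM used a prior count of 2, and single values were compared by exact two-sided permutation tests. Coordinates are those of the table, of which 13663 genes have the same in GENCODE M21. Exon lengths, transcripts and hairpin matches come from GENCODE M21 and its GRCm38 (mm10) genome.

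The 10 genes, the lists and the tests were chosen with earlier results of these data known. Named were the 10 genes, their partners in 7 pairs, pathway genes more than 2-fold changed at an adjusted p below 0.05, and the 5 nearest profiles of Hmox1 and Slc40a1, of which 1 is not reported here. Alas1, Flvcr1, Ncoa4, Pcbp1, Pcbp2, Aco1, Ireb2, Bach1, Nfe2l2, Gclm, Gclc, Srxn1, Txnrd1, Nqo1, Slc7a11, Spic, Vcam1, Slc4a1, Csf3r, Mmp9, Cxcr2, S100a8, S100a9 and Ftl1-ps1 were named after their values were seen. Marker lists covered red pulp macrophages, dendritic cells, monocytes, neutrophils (3 of 5 lower, median -0.63), B cells (4 of 6 lower, 1 higher, median -0.54), T cells (1 of 6 lower, median -0.27), erythroid cells and proliferation. Alternatives were relative log expression factors, at least 10 counts in every sample, DESeq2 1.42.0, limma-voom (limma 3.58.1), the replicate number as a block, a prior count of 0.5, the marker list without Csf1r and Adgre1, and each mouse left out in turn.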

Additional observations from a re-analysis of the deposited data

Results flagged for a closer look

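Blvra in B6.SLE123 replicate 2 stood apart from the other mice of its strain, at 4.64 log2 CPM against 4.82 to 4.84. It was the only one of 56 groups of 4 mice with a mouse this far from the others by Dixon's criterion, and chance alone would give about 1 in 20, or 2.8.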

How the results depend on the processing

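Each of the 10 recycling genes remained lower at an adjusted p below 0.05 under all 13 alternative fits. Leaving out a mouse gave median log2 fold changes between -1.99 and -1.82 for them and between 6496 and 7013 genes called in all. Replicate numbers did not pair the mice (correlations of deviations 0.0238, 0.0707, -0.0288 and 0.115), and with the replicate number as a block 7183 genes were called and all 10 remained lower. The list of mitochondrial iron had 1 gene lower with DESeq2 and with the replicate block, against 2, and 2 higher with these and limma-voom, against 1. Without a mouse, it had 1 to 3 lower and 1 to 2 higher, heme uptake 0 to 1 higher, iron uptake 1 to 2 higher, iron chaperones 1 to 2 lower and iron sensing 0 to 1 higher. Slc11a2 passed the test without C57BL/6 replicate 4 (-0.16, adjusted p = 0.0459 from edgeR). The cause of these changes was not tested. Without a mouse, the difference in log2 ratio between the strains was between 0.23 and 0.41 for Blvra to Blvrb, between -0.29 and -0.15 for Slc40a1 to Hmox1 and between -0.79 and -0.47 for Slc40a1 to Ftl1. Relative to the macrophage markers it was between -0.32 and -0.26 for Hmox1, -0.61 and -0.47 for Slc40a1, 0.68 and 0.92 for Slc11a1, 0.77 and 1.01 for Blvra, 0.54 and 0.59 for Blvrb, 1.45 and 1.66 for Fth1, 0.61 and 0.80 for Slc48a1, -0.24 and -0.15 for Trf, -0.35 and -0.07 for Cd163, and -0.01 and 0.19 for Ftl1, which turned to -0.01 without B6.SLE123 replicate 2 (exact permutation p adjusted over the genes 0.971). Against the marker median, added after seeing the data, the differences were -0.04 for Hmox1, -0.27 for Slc40a1, 1.06 for Slc11a1, 1.14 for Blvra, 0.81 for Blvrb, 1.82 for Fth1 and 0.97 for Slc48a1, none of them past the adjusted threshold, and those of Cd163 (0.04) and Trf (0.07) changed sign. With the length of the principal transcript, an alternative chosen after seeing the data, the levels in C57BL/6 were 1983 RPKM for Fth1, 1469 for Ftl1, 1232 for Hmox1, 671 for Slc40a1, 551 for Trf, 171 for Slc11a1, 104 for Blvrb, 80.7 for Cd163 and 60.5 for Blvra. In B6.SLE123 they were 1247 RPKM for Fth1, 332 for Ftl1, 105 for Trf, 104 for Slc40a1, 63.1 for Slc11a1, 32.8 for Blvrb and 23.6 for Blvra, by construction since the length divides the count. The levels of Slc48a1 and, in B6.SLE123, of Hmox1 and Cd163 moved by less than 1 SD. Of 713 results under an alternative, 647 kept their direction and side of the threshold or stayed within the limit for counts and levels. The lowest count of a recycling gene in any mouse was 714, for Blvra, so that depth limits these genes less than Abcb6.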
